A study of Mus musculus with 8 samples.

Results

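The nuclear genes of the respiratory chain were followed across 8 RNA sequencing libraries of NIH3T3 cells, a mouse fibroblast line, although the extraction protocol in the labels speaks of MEFs (mouse embryonic fibroblasts). The genes were chosen by name, as the symbols that begin with Nduf, Sdha, Sdhb, Sdhc, Sdhd, Uqcr, Cox4 to Cox8 or Atp5. The rule found 94 of 23304 gene symbols, and 86 of the 94 had enough reads to be tested, among 12807 tested genes. By the complex in which their products work, 7 of the 94 were core subunits of complex I, 29 were supernumerary subunits of complex I and 8 helped to assemble it. A further 6 belonged to complex II, 8 to complex III, 20 to complex IV and 16 to complex V.

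The respiratory chain sits in the inner mitochondrial membrane and passes electrons from NADH and succinate to oxygen. Complex I oxidizes NADH and complex II oxidizes succinate, complex III carries the electrons on to cytochrome c, and complex IV hands them to oxygen. Complexes I, III and IV pump protons, and complex V, the ATP synthase, uses the returning protons to make ATP. All complexes other than complex II also hold subunits encoded in mitochondrial DNA, which are not analysed here, so the levels below describe the nuclear share of each complex as RNA only.

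The labels place the libraries in 4 groups of 2: WT NIH3T3 and ZMYND11 CRISPR knockout (KO) NIH3T3, each at 0 h with no agent and at 2 h with recombinant mouse interferon-beta at 100 units/ml. The cells came from the Swiss albino strain and were grown in medium with bovine serum, and the labels do not say whether the knockout is 1 clone or a pool. They do not say either whether replicates are separate cultures, so p-values measure the spread between libraries, which may be technical. Zmynd11, a reader of methylated histone H3.3, went against the labels: it had 1967 to 2511 reads in the 4 libraries labelled 0 h and 59 to 72 in the 4 labelled 2 h, in WT and KO alike. Every group below is therefore named by its label alone, and the word genotype below means the WT or KO label. A comparison of the labels 2 h and 0 h also compares low with high Zmynd11, in that order.

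Gene reads numbered 13671013 to 21299120 per library, and the respiratory chain genes took 0.901 to 1.16% of them. Levels are given as CPM, counts scaled to a common library size with TMM factors, and 3 reads correspond to 0.138 to 0.210 CPM, for counting error only. Fibroblast markers were abundant in every library but lower at 2 h. All 9 were tested, and their summed level was 45712 to 46075 CPM in WT 0 h, 18606 to 19730 CPM in WT 2 h, 41280 to 42366 CPM in KO 0 h and 18998 to 20544 CPM in KO 2 h. The TMM factors also differed by time label, at 0.93 to 0.96 in the 0 h libraries and 1.04 to 1.06 in the 2 h libraries. The KO replicates stood apart from each other in the respiratory chain genes. In KO 0 h, 70 of the 86 were higher in replicate 1, with a median difference of 0.13 (log2), and in KO 2 h 15 of the 86 were higher in replicate 1, with a median of -0.17 (log2). The same median was 0.02 in WT 0 h and 0.003 in WT 2 h, and it was -0.01 and 0.01 over all tested genes in KO 0 h and KO 2 h. KO 0 h replicate 2 had 17.3% of reads outside genes and 17498 genes with reads, against 12.8% and 14847 in replicate 1. The WT 0 h libraries had 13.3 and 13.1%, and 15460 and 15053 genes. The part of this in the KO results was not tested.

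Between the labels 0 h and 2 h single respiratory chain genes moved in both directions, and most of their changes were smaller than 2-fold. Their summed level was 10164 and 9969 CPM in WT 0 h, 10544 and 10643 CPM in WT 2 h, 10543 and 9418 CPM in KO 0 h, and 9849 and 11139 CPM in KO 2 h. The WT 2 h libraries lay above the WT 0 h libraries, and the KO groups overlapped. In WT, 15 of the 86 tested members rose from 0 h to 2 h, 23 fell and 48 were not called, by edgeR's quasi-likelihood test at a Benjamini-Hochberg adjusted p below 0.05 over all tested genes. In KO, 17 rose, 25 fell and 44 were not called. These shares stood below those of all tested genes for rises: 17.4% of members in WT and 19.8% in KO, against 30.1% and 30.0% of all tested genes. For falls they were 26.7% and 29.1% of members, against 31.1% and 31.2% of all tested genes. The libraries of the groups compared did not overlap for any of the 38 called members in WT and for 41 of the 42 in KO, with Ndufa8 as the exception. Such separation was common without a call: it held for 64 of the 86 members in WT and 51 in KO, or 74.4% and 59.3%, against 82.6% and 77.5% of all tested genes. DESeq2 called 32 of the 38 WT members and 37 of the 42 KO members.

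The quartiles of the members' changes lay closer together than those of all tested genes, a description that was not tested. Their median log2 fold change was -0.03 in WT with quartiles of -0.24 and 0.16, where all tested genes had a median of 0.01 with quartiles of -0.43 and 0.49. In KO the members' median was -0.03 with quartiles of -0.34 and 0.20, and all tested genes had a median of -0.01 with quartiles of -0.45 and 0.50. Called changes of at least 2-fold numbered 2 rises and 1 fall in WT and 1 rise and 2 falls in KO. The WT and KO comparisons share no library: 10 members rose in both, 19 fell in both, none was called in opposite directions and 35 were called in neither. That is 11.6% rising in both, 22.1% falling in both and 40.7% called in neither, where all tested genes had 24.6%, 26.3% and 28.6%, with 11 of 12807 called in opposite directions. The log2 fold changes of those 35 ran from -0.29 to 0.30 in WT and from -0.34 to 0.25 in KO.

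**Figure D1:**
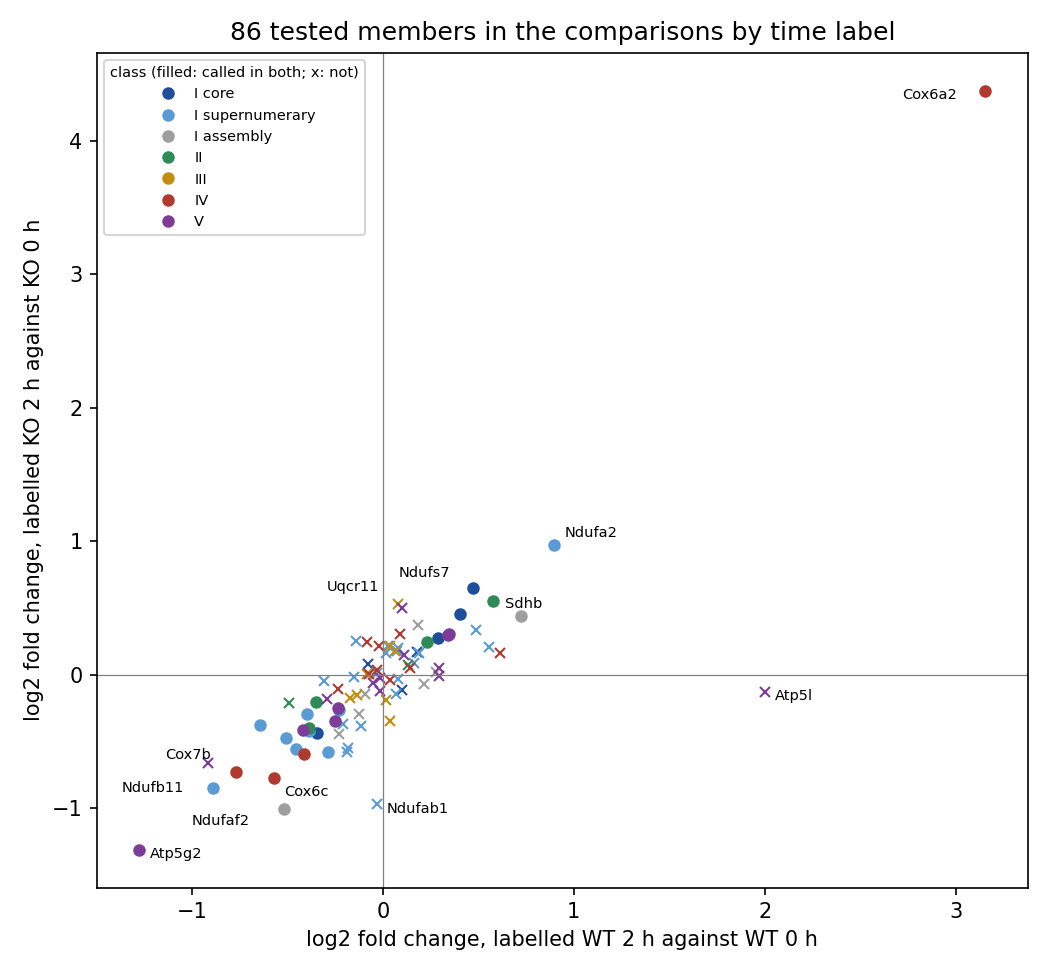
Each point is 1 of the 86 tested members, placed by its log2 fold change from WT 0 h to WT 2 h (horizontal axis) and from KO 0 h to KO 2 h (vertical axis), with the colour giving the complex, filled points for members called in both comparisons and crosses for the rest. The 10 filled points above and to the right of 0 and the 19 below and to the left are the members called in both, and Cox6a2 lies farthest from the rest at 3.15 and 4.37.

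The split between rises and falls depended on how the libraries were scaled and on single libraries. Leaving out a library also lowered the number of calls over all tested genes, in WT and in KO. A loss of calls was thus not particular to the members, and its size in members against all genes was not tested. Scaling by library size alone moved the median of all tested genes by 0.14 (log2) in WT and 0.15 in KO, and then 29 members rose and 14 fell in WT, and 29 rose and 16 fell in KO. No called member changed sign under that scaling, under RLE factors or in DESeq2. Without WT 0 h replicate 2 the WT count of rises was 9, without WT 0 h replicate 1 it was 10, without WT 2 h replicate 1 the count of falls was 15 and without WT 2 h replicate 2 it was 14. Without KO 2 h replicate 1 the KO counts became 27 rises and 15 falls.

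Among the complex I core subunits, which carry the flavin and the iron-sulfur clusters, 3 rose and 1 fell of 7, in WT and in KO. Counts by complex, here and below, can be read against the shares of all tested genes. These were 30.1% higher and 31.1% lower in WT, and 30.0% and 31.2% in KO. Ndufs7, which holds the last iron-sulfur cluster before ubiquinone, stood at 63.2 and 57.0 CPM in WT 0 h, 74.4 and 92.5 in WT 2 h, 54.3 and 54.1 in KO 0 h, and 76.9 and 94.0 in KO 2 h. Both 2 h groups lay above both 0 h groups. It rose by 0.47 in WT (log2, SE 0.11, edgeR adjusted p = 0.000595) and by 0.65 in KO (SE 0.11, edgeR adjusted p = 2.06e-05). Ndufs3, a core subunit of the peripheral arm, went from 25.5 and 24.3 CPM to 33.6 and 32.2 CPM in WT and from 23.9 and 22.1 CPM to 29.05 and 34.5 CPM in KO. It rose by 0.40 (log2, SE 0.11, edgeR adjusted p = 0.00356) and by 0.46 (SE 0.12, edgeR adjusted p = 0.00161), with no overlap between the groups, although the WT call was lost without WT 0 h replicate 2, at 0.36 (edgeR adjusted p = 0.0527).

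Ndufv2, an iron-sulfur subunit of the NADH-oxidizing module, was the core subunit that fell. It stood at 103 and 94.9 CPM in WT 0 h and at 77.9 and 78.1 CPM in WT 2 h, a log2 change of -0.34 (SE 0.09, edgeR adjusted p = 0.0021). In KO it went from 109 and 94.0 CPM to 71.5 and 79.2 CPM, a log2 change of -0.44 (SE 0.09, edgeR adjusted p = 0.000227). The groups did not overlap in either comparison. Ndufs1, Ndufs8 and Ndufv1 were not called, with log2 changes of -0.11 to 0.18.

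The supernumerary subunits of complex I, which surround the core and stabilize it, had more falls than rises: 3 rose and 9 fell of 28 in WT, and 1 rose and 13 fell in KO. In WT that was 10.7% and 32.1%, against 30.1% and 31.1% of all tested genes, so the falls lay near the share of all genes. In KO it was 3.57% and 46.4%, against 30.0% and 31.2%. Scaled by library size alone, the counts were 7 and 6 in WT and 9 and 8 in KO. Ndufb11, a membrane-arm subunit, fell from 55.5 and 65.1 CPM in WT 0 h to 33.3 and 31.8 CPM in WT 2 h, by 0.89 on the log2 scale (SE 0.15, edgeR adjusted p = 4.5e-05). In KO its level was 68.5 and 45.7 CPM at 0 h and 29.6 and 34.5 CPM at 2 h, a log2 change of -0.85 (SE 0.15, edgeR adjusted p = 8.48e-05). The 0 h libraries were the higher ones throughout, with the KO 0 h replicates far apart, and without KO 0 h replicate 1 the KO change was -0.49 and still called.

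Ndufa10, another accessory subunit of the membrane arm, was lower in both 2 h groups. It went from 158 and 159 CPM to 113 and 109 CPM in WT and from 152 and 138 CPM to 103 and 106 CPM in KO, log2 changes of -0.51 and -0.47. Ndufa2, a small subunit of the peripheral arm, was the supernumerary subunit that rose in both: from 53.5 and 47.6 CPM to 84.8 and 103 CPM in WT, and from 52.0 and 46.2 CPM to 84.9 and 109 CPM in KO. Its log2 changes were 0.90 (SE 0.11, edgeR adjusted p = 7.34e-07) and 0.97 (SE 0.12, edgeR adjusted p = 2.97e-07), with no overlap between the groups. Relative to the median of chromosome 18 its change was 0.22 in WT, which was not called (edgeR adjusted p = 0.134), and 0.37 in KO, which was. Ndufa3 fell in both, by 0.64 in WT and 0.38 in KO on the log2 scale, and its KO call was lost with library size alone (edgeR adjusted p = 0.124).

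Of the other supernumerary subunits, Ndufa8, Ndufb5, Ndufb7, Ndufb9 and Ndufs4 were called lower in both genotypes, with log2 changes of -0.23 to -0.58. With library size alone Ndufb7 was called in neither genotype (edgeR adjusted p = 0.362 in WT and 0.282 in KO), and the calls of Ndufs4 in WT (0.169) and Ndufa8 in KO (0.25) were lost. Ndufb9 changed sign in both genotypes relative to the median of its chromosome. Some were called in 1 genotype. Ndufs6 and Ndufa12 rose in WT by 0.55 and 0.49 (log2) and changed by 0.21 and 0.34 in KO without a call. Without WT 0 h replicate 1 both calls were lost, at 0.54 for Ndufs6 (edgeR adjusted p = 0.0566) and 0.41 for Ndufa12 (edgeR adjusted p = 0.12). The call of Ndufs6 was also lost without WT 0 h replicate 2 (edgeR adjusted p = 0.0521) or WT 2 h replicate 1 (0.0673), and that of Ndufa12 without WT 2 h replicate 2 (0.063). Ndufa5 fell in KO from 107 and 99.0 CPM to 57.2 and 81.5 CPM, by 0.58 on the log2 scale (SE 0.13, edgeR adjusted p = 0.0013), or by 0.31 without KO 2 h replicate 1. In WT it was at 80.9 and 80.3 CPM at 0 h and at 78.7 and 62.9 CPM at 2 h, a change of -0.19 that was not called. Ndufab1, the mitochondrial acyl carrier protein, fell in KO from 5.63 and 5.35 CPM to 2.53 and 3.15 CPM, a log2 change of -0.97, and was at 4.59 and 4.03 CPM in WT 0 h and 4.42 and 4.002 CPM in WT 2 h. The difference between the genotypes in the change of Ndufab1 was -0.94 (log2, SE 0.33, edgeR adjusted p = 0.279) and did not pass the test.

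Of the 8 genes for complex I assembly, 1 rose and 1 fell in WT, and 2 rose and 2 fell in KO. Ndufaf2, an assembly factor that binds the nearly finished complex, fell from 25.3 and 31.2 CPM to 21.1 and 18.3 CPM in WT, by 0.52 (log2, SE 0.15, edgeR adjusted p = 0.00487). In KO it went from 41.2 and 33.8 CPM to 15.8 and 22.3 CPM, a log2 change of -1.002 (SE 0.15, edgeR adjusted p = 5.99e-06). The groups did not overlap, but the WT call was lost without WT 0 h replicate 2, at -0.37 (edgeR adjusted p = 0.0888), and without WT 2 h replicate 2, at -0.39 (edgeR adjusted p = 0.104). Atp5sl, whose symbol recalls ATP synthase although its product helps to build the membrane arm of complex I, rose by 0.72 in WT and 0.44 in KO (log2). The KO call of Atp5sl was lost without KO 0 h replicate 1, at 0.34 (edgeR adjusted p = 0.124).

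**Figure D2:**
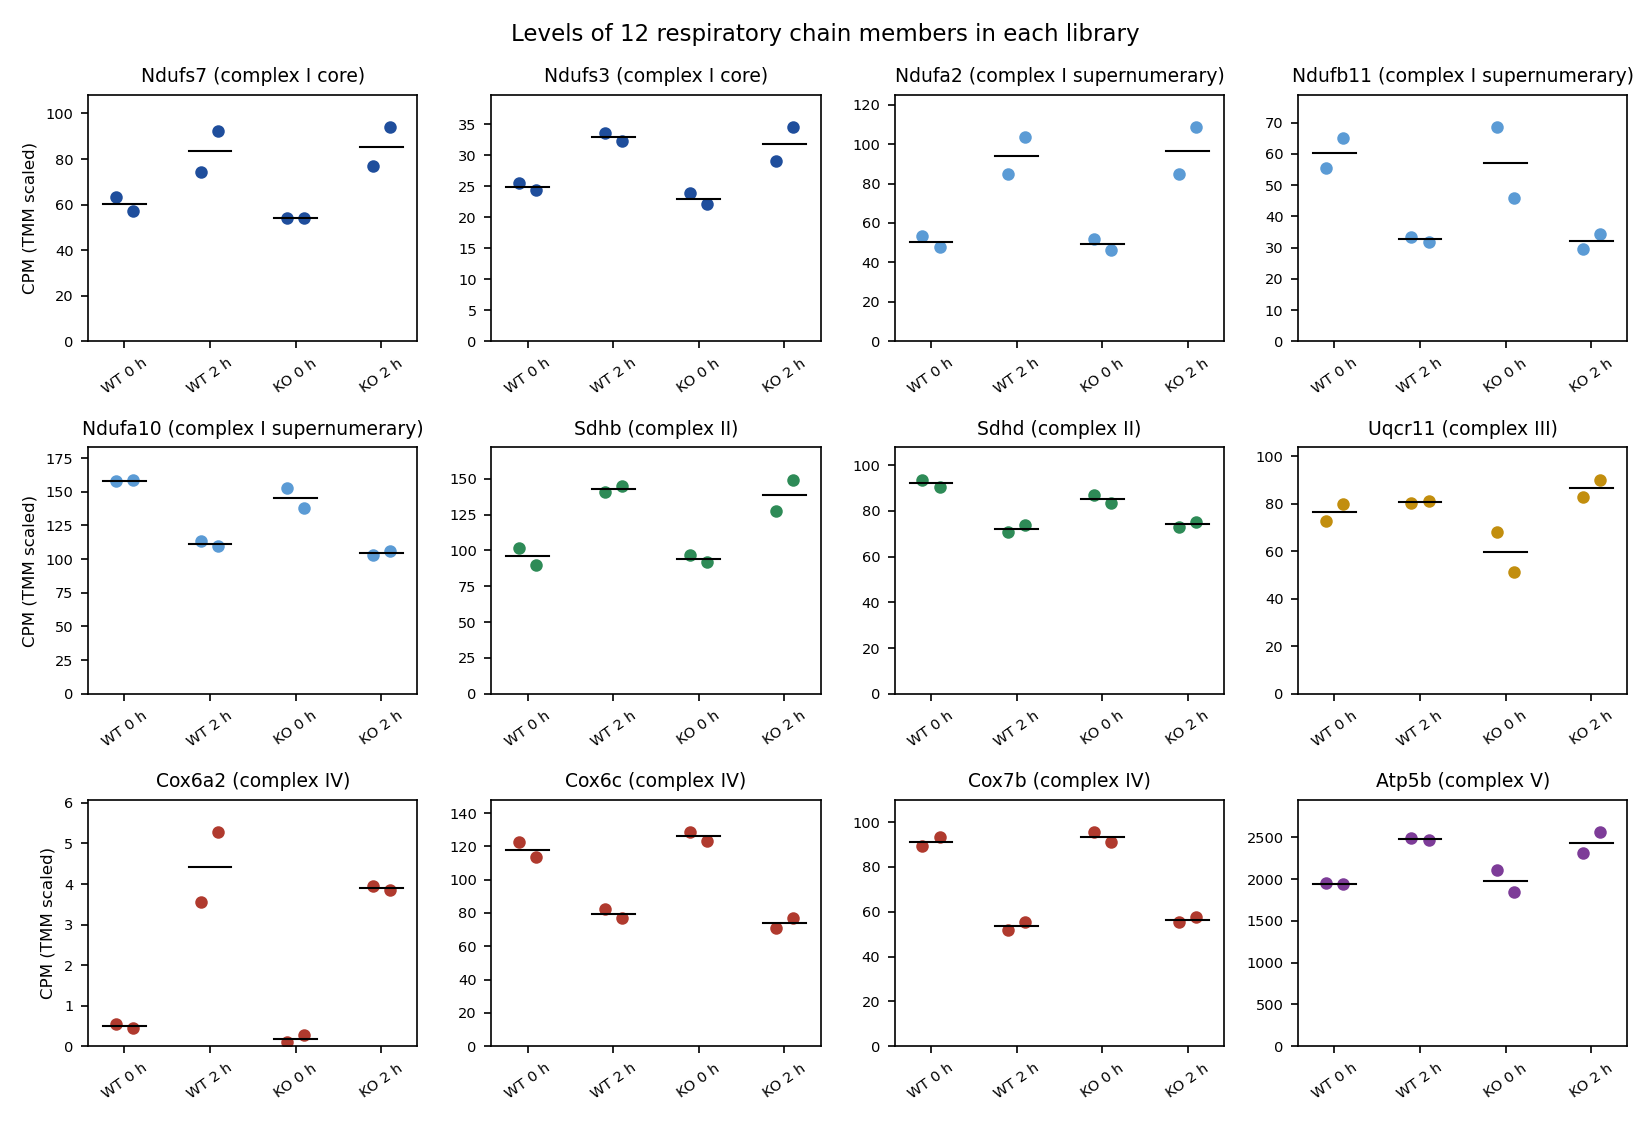
Points give the level of 12 members in each library, in CPM scaled with TMM factors on linear axes that start at 0, with the 4 labelled groups on the horizontal axis and a black line at the mean of the 2 libraries of a group. Both 2 h groups lie above both 0 h groups for Ndufs7, Ndufs3, Ndufa2, Sdhb, Cox6a2 and Atp5b and below them for Ndufb11, Ndufa10, Sdhd, Cox6c and Cox7b, while for Uqcr11 the 2 h libraries lie above the 0 h libraries within each genotype, by a wide gap in KO and a narrow one in WT.

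Complex II also serves the tricarboxylic acid cycle as succinate dehydrogenase. Of its 6 genes 2 rose and 3 fell in WT, and 2 rose and 2 fell in KO, the rises in the catalytic subunits. Scaled by library size alone, 3 rose and 2 fell in WT and 2 rose and none fell in KO. Sdhb, the iron-sulfur subunit, rose from 101 and 90.1 CPM in WT 0 h to 141 and 145 CPM in WT 2 h, by 0.58 (log2, SE 0.09, edgeR adjusted p = 5.52e-06). In KO it rose from 96.4 and 92.1 CPM to 128 and 149 CPM, by 0.55 (SE 0.09, edgeR adjusted p = 1.12e-05). Both 2 h groups lay above both 0 h groups. Sdha, the flavin subunit, went from 198 and 201 CPM to 241 and 228 CPM in WT and from 209.6 and 190.1 CPM to 232 and 243 CPM in KO. Its log2 changes were 0.23 (SE 0.08, edgeR adjusted p = 0.0113) and 0.25 (SE 0.08, edgeR adjusted p = 0.00749). The Sdha call was lost in WT without 0 h replicate 1 (edgeR adjusted p = 0.121), 0 h replicate 2 (0.086) or 2 h replicate 1 (0.0526), and in KO without 0 h replicate 2 (0.0737).

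The subunits that anchor complex II in the membrane had lower levels at 2 h. Sdhd fell from 93.7 and 90.5 CPM to 70.7 and 73.8 CPM in WT, by 0.35 (log2, SE 0.08, edgeR adjusted p = 0.000685). In KO it was at 86.8 and 83.6 CPM at 0 h and at 73.0 and 75.3 CPM at 2 h, a log2 change of -0.20 (edgeR adjusted p = 0.0368). That KO call was lost under several alternatives: with RLE factors (edgeR adjusted p = 0.0533), with library size alone (0.597), in DESeq2 (0.071) and without KO 0 h replicate 1 (0.209) or either KO 2 h replicate (0.219 and 0.0959). Sdhc fell in WT from 110.3 and 92.8 CPM to 68.5 and 75.8 CPM, by 0.49 (log2, SE 0.09, edgeR adjusted p = 9.85e-05), and in KO its change was -0.21 (edgeR adjusted p = 0.0637). Sdhaf1, which helps to mature the iron-sulfur subunit, was called lower in both, at -0.39 and -0.40 (log2). Both calls were lost under library size alone (edgeR adjusted p = 0.146 and 0.171) and in DESeq2 (adjusted p = 0.0691 and 0.0773). They were also lost in WT without 0 h replicate 1 (edgeR adjusted p = 0.057), 0 h replicate 2 (0.131) or 2 h replicate 2 (0.334), and in KO without 0 h replicate 1 (0.358) or either 2 h replicate (0.104 and 0.0955). Sdhaf2, which helps to attach the flavin, was not called in either genotype.

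Complex III, the cytochrome bc1 complex, had no member called by edgeR of 8 in WT, where the log2 changes ran from -0.17 to 0.08. In KO 2 rose and none fell. Scaled by library size alone, 2 rose in WT, Uqcrc1 and Uqcrq, and 3 rose in KO, and none fell. Relative to the chromosome median 1 was lower in WT, and 1 was higher and 2 were lower in KO. Uqcr11, its smallest supernumerary subunit, stood at 72.8 and 79.7 CPM in WT 0 h, 80.1 and 80.9 in WT 2 h, 68.1 and 51.1 in KO 0 h, and 83.0 and 90.1 in KO 2 h. The KO 0 h libraries were the lowest and the KO 2 h libraries the highest. The KO change was 0.53 (log2, SE 0.11, edgeR adjusted p = 0.000148), or 0.34 without KO 0 h replicate 2, and the WT change 0.08 (SE 0.10, edgeR adjusted p = 0.529). The difference between these changes was 0.45 (SE 0.15, edgeR adjusted p = 0.25), so they were not shown to differ. Uqcrc1, a core subunit, was called higher in KO by 0.22 (log2, edgeR adjusted p = 0.0221), a call lost without KO 0 h replicate 2 (edgeR adjusted p = 0.155) or KO 2 h replicate 2 (0.165).

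Complex IV, cytochrome c oxidase, has subunits with tissue isoforms, and 13 of its 20 genes were tested. In WT 2 rose and 4 fell, and in KO 4 rose and 3 fell. Scaled by library size alone, 4 rose and 3 fell in each. The ubiquitous isoforms carried nearly all reads. Cox4i1 was at 448 to 471 CPM in WT 0 h and 429 to 445 CPM in WT 2 h, while Cox4i2, the lung isoform, had at most 11 reads in a library. Cox6a1 was at 166 and 160.5 CPM in WT 0 h, Cox7a2 at 85.5 and 86.7 CPM and Cox8a at 132 and 136 CPM. The muscle isoform Cox7a1 had 1 to 7 reads in a library, and Cox8b had none in any library.

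Cox6a2, the heart and skeletal muscle isoform of subunit VIa, was the exception among the muscle isoforms. It had 11 and 9 reads in WT 0 h, 66 and 95 in WT 2 h, 2 and 4 in KO 0 h, and 86 and 55 in KO 2 h. These reads correspond to 0.537 and 0.442 CPM, 3.56 and 5.28 CPM, 0.110 and 0.267 CPM, and 3.95 and 3.85 CPM. Every 2 h library lay above every 0 h library, and the levels stayed low against Cox6a1. The log2 change was 3.15 in WT (SE 0.39, edgeR adjusted p = 2.56e-07) and 4.37 in KO (SE 0.50, edgeR adjusted p = 7.56e-08), and the KO value leans on the 6 reads of KO 0 h. In the reference annotation the span of Cox6a2 overlaps that of Itgad, a leukocyte integrin gene. The sources used here do not give the strand setting of the counting, so it is not known whether reads of Itgad were counted for Cox6a2. The summed level of 7 muscle markers was also higher at 2 h: 25.7 to 28.8 CPM in WT 0 h, 47.8 to 51.6 CPM in WT 2 h, 24.2 to 33.7 CPM in KO 0 h and 45.6 to 49.9 CPM in KO 2 h. Desmin and Tnnt2 were the 2 of 7 with enough reads to be tested, Myog had no reads in WT 2 h or KO 2 h, and Ckm had none in KO 0 h. A difference between the time labels was not particular to muscle markers. Endothelial markers also summed higher at 2 h, at 12.5 to 13.9 CPM in WT against 2.41 to 3.22 CPM at 0 h, and fibroblast markers summed lower. The part of these markers in the result was not tested.

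Among the other subunits of complex IV, Cox6c and Cox7b fell. Cox6c went from 123 and 113 CPM to 82.3 and 76.9 CPM in WT and from 128.5 and 124 CPM to 70.8 and 77.3 CPM in KO, log2 changes of -0.57 (SE 0.08, edgeR adjusted p = 3.33e-06) and -0.77 (SE 0.08, edgeR adjusted p = 4.4e-08). Cox7b went from 89.2 and 93.5 CPM to 51.8 and 55.2 CPM in WT and from 95.5 and 91.2 CPM to 55.3 and 57.6 CPM in KO, log2 changes of -0.77 (SE 0.08, edgeR adjusted p = 4.54e-08) and -0.73 (SE 0.08, edgeR adjusted p = 1.22e-07). The 0 h and 2 h libraries of both genes were clearly apart. Cox7a2l, which helps to join complexes III and IV into supercomplexes, fell by 0.41 in WT and 0.59 in KO on the log2 scale. Cox5a, a subunit on the matrix side, rose in KO by 0.31 (log2, SE 0.08, edgeR adjusted p = 0.00235). In WT its change was 0.09, and Cox5b changed by -0.03 in WT and 0.04 in KO, none of them called. Ndufa4, counted here with complex IV, fell in WT by 0.24, a call lost with library size alone (edgeR adjusted p = 0.278), and Cox8a rose in KO by 0.24 (log2). The call of Cox8a was lost without KO 2 h replicate 2 (edgeR adjusted p = 0.102). Cox7c was called higher in WT by 0.61 (log2, edgeR adjusted p = 0.0385), a call lost in DESeq2 (adjusted p = 0.0536) and without WT 0 h replicate 1 (0.228), WT 0 h replicate 2 (0.075) or WT 2 h replicate 1 (0.25).

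Complex V had 4 rises and 5 falls of 16 in WT and 3 rises and 4 falls in KO. Scaled by library size alone, it had 5 rises and 1 fall in WT and 4 rises and 2 falls in KO. Both main subunits of its catalytic head were called higher, but not relative to the median of their chromosomes. Atp5b, the beta subunit that carries the active sites, went from 1953 and 1941 CPM to 2488 and 2468 CPM in WT, and from 2104 and 1846 CPM to 2313 and 2562 CPM in KO. Its log2 changes were 0.35 (SE 0.08, edgeR adjusted p = 0.000599) and 0.30 (SE 0.08, edgeR adjusted p = 0.00206). Relative to the median of chromosome 10 they were 0.18 (edgeR adjusted p = 0.0692) and 0.12 (edgeR adjusted p = 0.211), and both calls were lost. Atp5a1, the alpha subunit, went from 1127 and 1111 CPM to 1409.9 and 1426 CPM in WT and from 1218 and 1062 CPM to 1311 and 1500.2 CPM in KO, log2 changes of 0.34 and 0.30. The KO call of Atp5a1 was lost without KO 2 h replicate 2, at 0.22 (edgeR adjusted p = 0.0537). These 2 genes made up most of the reads of complex V, and its summed level was 4601 and 4532 CPM in WT 0 h, 5199 and 5249 CPM in WT 2 h, 4873 and 4276 CPM in KO 0 h, and 4859 and 5470 CPM in KO 2 h.

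The genes for subunit c, whose ring turns with the proton flow, differed in level. All were called lower in WT, and Atp5g3 and Atp5g2 in KO. Atp5g3 fell from 459 and 445 CPM to 330.5 and 345 CPM in WT, by 0.42 (log2, SE 0.09, edgeR adjusted p = 0.000249). In KO it fell from 490.2 and 409.6 CPM to 312 and 364 CPM, by 0.41 (SE 0.09, edgeR adjusted p = 0.000291), or by 0.25 without KO 0 h replicate 1. Atp5g1 had 25 to 73 reads and Atp5g2 6 to 30 reads in a library. The KO libraries of Atp5g1 overlapped, at 2.04 and 4.88 CPM at 0 h and 1.75 and 2.66 CPM at 2 h, and its KO change of -0.66 was not called (edgeR adjusted p = 0.131). Their WT calls, at log2 changes of -0.92 for Atp5g1 and -1.27 for Atp5g2, and the KO call of Atp5g2, at -1.31, were each lost in DESeq2 (adjusted p = 0.0736, 0.0874 and 0.0753). For Atp5g1 the WT call was also lost without WT 0 h replicate 1 (edgeR adjusted p = 0.192) or either 2 h replicate (0.292 and 0.0595). For Atp5g2 the WT call was lost without any 1 of the 4 libraries (edgeR adjusted p = 0.0565 to 0.325), and the KO call without KO 0 h replicate 2 (0.143) or either 2 h replicate (0.169 and 0.0853). Atp5f1, the b subunit of the stalk, fell by 0.25 in WT and 0.34 in KO on the log2 scale (0.21 without KO 0 h replicate 1), and Atp5c1, the gamma subunit of the rotor, by 0.24 and 0.25. With library size alone Atp5c1 was called in neither genotype, at -0.10 in both (edgeR adjusted p = 0.267 and 0.246), and Atp5f1 was not called in WT, at -0.11 (0.242). The WT call of Atp5g1 and both calls of Atp5g2 were lost under that scaling too (edgeR adjusted p = 0.0855, 0.0724 and 0.0609). Atp5l, a membrane subunit, was called higher in WT, with 6 and 3 reads at 0 h and 19 and 14 at 2 h. In KO it had 18 and 5 reads at 0 h and 17 and 6 at 2 h, so its WT call rests on few reads.

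**Figure D3:**
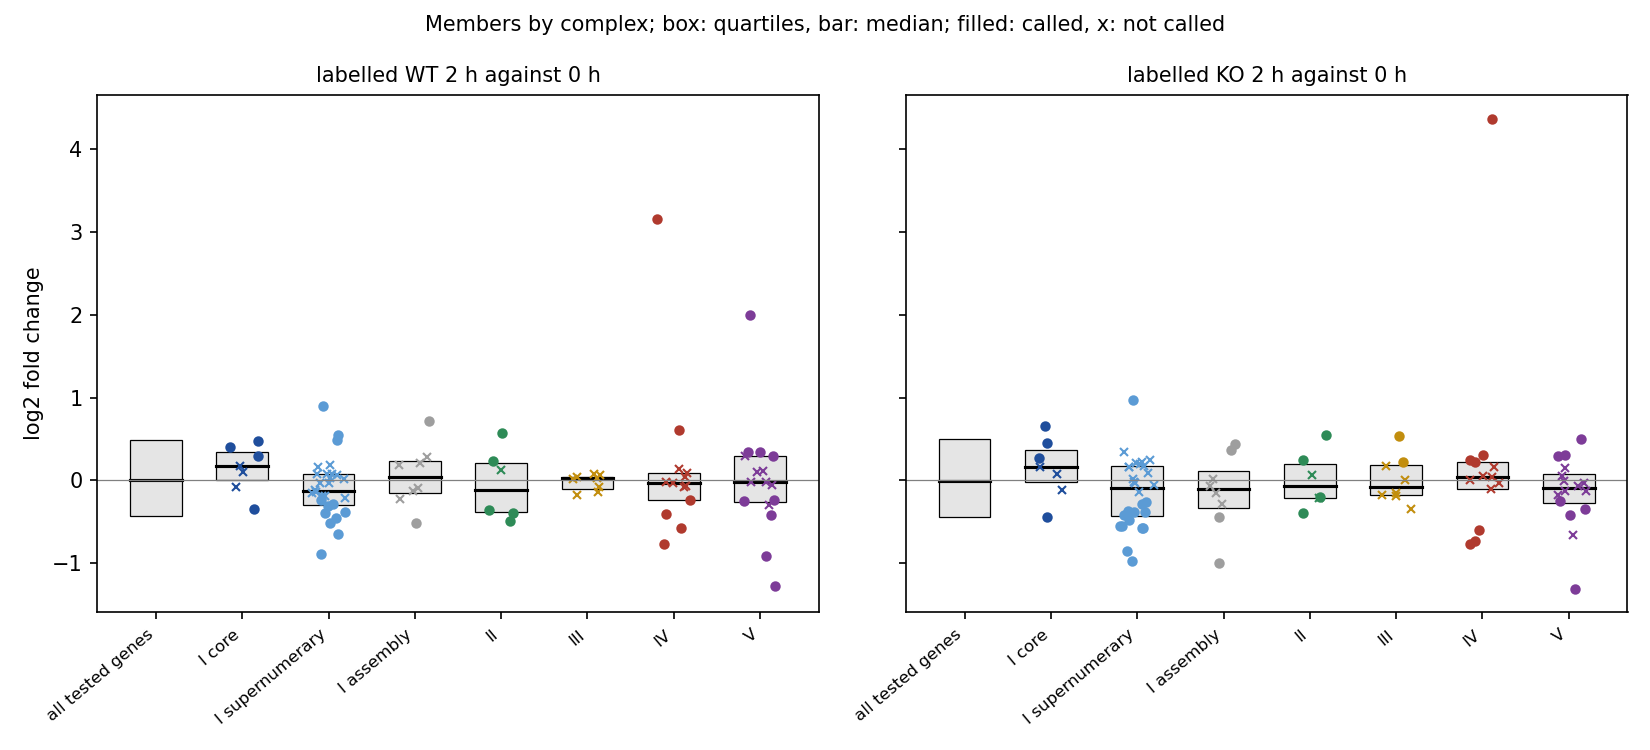
Each point is a tested member placed by its log2 fold change (vertical axis) within its complex (horizontal axis), in WT on the left and KO on the right, filled where called and a cross where not, over boxes that span the quartiles with a bar at the median. The first box in each panel gives all tested genes, with quartiles of -0.43 and 0.49 in WT and -0.45 and 0.50 in KO, and the boxes of the complexes are narrower.

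The labels KO and WT at the same time differed in few members. At 0 h, 2 members were lower in KO and none was higher, against 1.27% lower and 2.65% higher among all tested genes. Without adjustment 10 members had p below 0.05, and DESeq2 called 2. Atp5d, the delta subunit of the ATP synthase stalk, stood at 203 and 189 CPM in WT 0 h and at 162 and 148 CPM in KO 0 h, a log2 difference of -0.34 (SE 0.09, edgeR adjusted p = 0.0386). At 2 h it was at 188 and 231 CPM in WT and 209 and 230.2 CPM in KO, so the KO 0 h libraries were the low ones. Ndufa7, a supernumerary subunit of complex I, was at 38.0 and 33.4 CPM in WT 0 h and 24.6 and 28.7 CPM in KO 0 h, a log2 difference of -0.42 (SE 0.12, edgeR adjusted p = 0.0426). At 2 h Ndufa7 was at 30.9 and 33.8 CPM in WT and 33.7 and 29.4 CPM in KO. The 50 neighbouring tested genes of Atp5d had a median log2 difference of -0.20 in KO against WT at 0 h, and those of Ndufa7 a median of -0.008. The Atp5d call was lost without WT 0 h replicate 1 (edgeR adjusted p = 0.291), WT 0 h replicate 2 (0.0774) or KO 0 h replicate 2 (0.148), and the Ndufa7 call without WT 0 h replicate 1 (0.353), WT 0 h replicate 2 (0.057) or KO 0 h replicate 1 (0.0994). The count of lower members was 5 without KO 0 h replicate 1, 1 without KO 0 h replicate 2 and 0 without either WT 0 h replicate.

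At 2 h no member was called between KO and WT by edgeR, where 1.59% of all tested genes were higher and 0.00781% lower. Without adjustment 2 members had p below 0.05, and DESeq2 called 0. The interaction, the KO change from 0 h to 2 h minus the WT change, called no member either, with 0.0547% of all tested genes higher and 0.0781% lower. Without adjustment 9 members had p below 0.05, and DESeq2 called 0. The smallest edgeR adjusted p was 0.24, for Atp5d, whose change was 0.10 in WT and 0.50 in KO (log2), a difference of 0.40 (SE 0.13). Without KO 0 h replicate 1 the interaction called 1 member higher, and without KO 2 h replicate 2 it called 1 lower. Cox8a had an interaction of 0.33 (edgeR adjusted p = 0.301), from -0.08 in WT and 0.24 in KO. The comparisons of KO with WT and the comparisons of 2 h with 0 h use libraries in common and are not independent of each other.

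The changes of several members lay in the direction of all genes on their chromosome. Taking chromosomes from the RefSeq annotation of GRCm38, the median log2 fold change of all tested genes from 0 h to 2 h was -0.62 in WT and -0.55 in KO on chromosome 15, 0.69 and 0.60 on chromosome 18, and -0.67 and -0.79 on chromosome X. On every other chromosome it lay between -0.23 and 0.16 in WT and between -0.30 and 0.19 in KO. These 3 chromosomes held 9 of the 86 tested members, among them Cox6c on 15, Ndufa2 and Atp5a1 on 18, and Cox7b and Ndufb11 on X. In WT 2 of the 9 rose and 5 fell, and in KO 2 rose and 6 fell.

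Each member was then also compared relative to the median of its chromosome, an alternative chosen after the data were seen. None of the 7 WT calls and 2 of the 8 KO calls on chromosomes 15, 18 and X kept their direction and their call, against 25 of 31 in WT and 24 of 34 in KO on the other chromosomes. Chromosomes 15, 18 and X were picked by their large medians in these data, and this scale subtracts the same medians. The contrast with the other chromosomes was therefore largely fixed in advance. Ndufb11 then had log2 changes of -0.23 in WT and -0.09 in KO, and Cox7b -0.11 and 0.03, none of them called. Atp5a1 reversed, to -0.34 in WT (edgeR adjusted p = 0.00216) and -0.30 in KO (edgeR adjusted p = 0.0052). Cox6c had 0.04 in WT without a call, and Ndufb9 had 0.22 in WT, where it was called higher (edgeR adjusted p = 0.0287), and 0.14 in KO without a call. Other calls lost on this scale were those of Sdha, Ndufa12 and Cox7c in WT, of Ndufa10, Atp5sl, Cox8a and Uqcrc1 in KO, and of Ndufb7, Atp5f1 and Atp5g2 in both genotypes. Ndufa6, a complex I subunit on chromosome 15 with a change of 0.08 in WT and -0.03 in KO, was called higher than its chromosome by 0.69 and 0.53. Sdhb on chromosome 4 kept its rise on this scale, at 0.49 and 0.46. Over all members the counts were then 13 higher and 20 lower in WT and 14 higher and 22 lower in KO. Nearer to Sdhb the shift was larger than over its chromosome. Its 50 neighbouring tested genes had a median of 0.20 in WT and 0.46 in KO, against 0.58 and 0.55 for Sdhb itself.

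**Figure D4:**
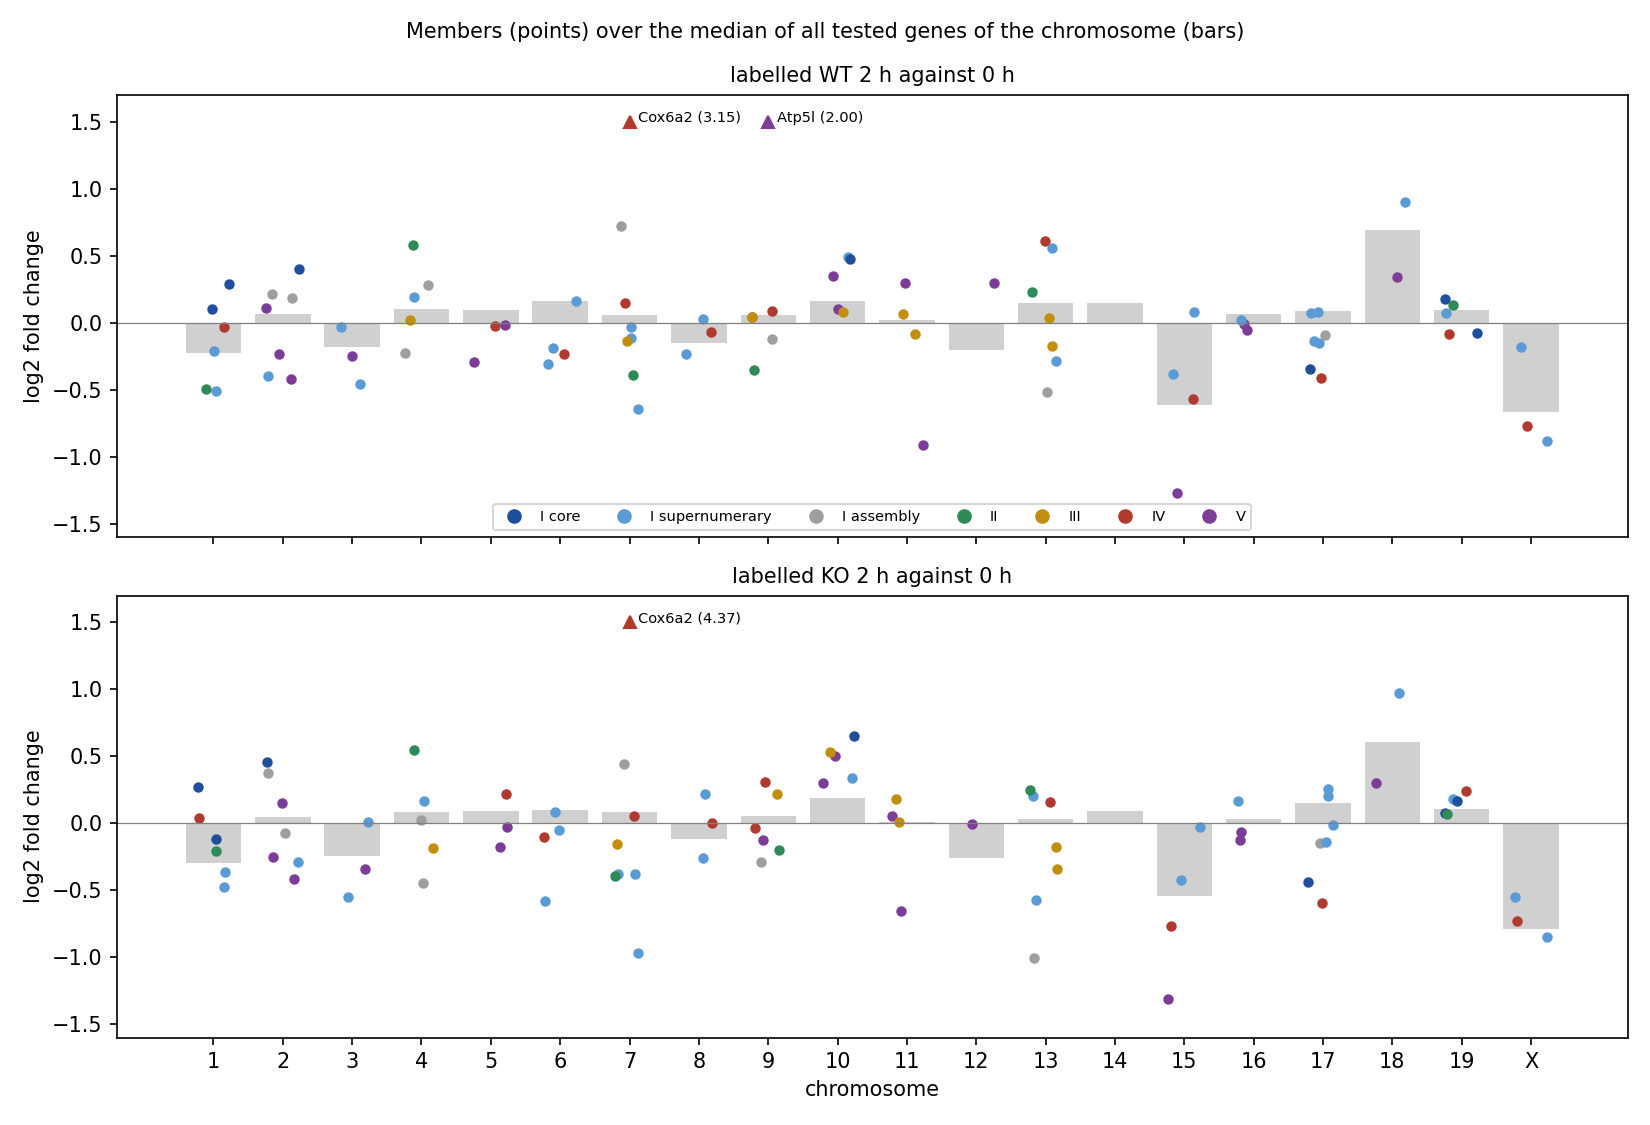
Grey bars give the median log2 fold change of all tested genes of a chromosome and points the log2 fold change of each tested member on it, for WT (upper panel) and KO (lower panel), with triangles for values beyond the axis, printed beside them. The bars of chromosomes 15, 18 and X reach 0.55 to 0.79 from 0, and most members on them lie on the same side of 0 as the bar.

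The promoters of the members were read from RefSeq on GRCm38.p6, from 250 bases before to 50 bases after the start. The table held 84 promoters of 78 members and 32851 promoters in all. Each motif was searched on both strands, and overlapping matches were allowed. The core of the site for nuclear respiratory factor 1, GCATGCGC, lay in 14.3% of member promoters and in 2.71% of all promoters. The YY1 motif AAGATGGC lay in 14.3% and 2.75%, the ETS motif CCGGAAGT of the GABP factor in 5.95% and 3.89%, and TCAAGGTCA of the estrogen-related receptors in 2.38% and 0.423%. GAAANNGAA of the interferon response element lay in 8.33% of member promoters and 8.56% of all. 3 promoters, of Sdhb (chr4:140961021-140961300, + strand), Uqcr11 (chr10:80406792-80407071, - strand) and Ndufaf4 (chr4:24897833-24898112, + strand), are shown because these members were called and hold the nuclear respiratory factor 1 core, which is in capitals together with the ETS motif in Uqcr11. They were picked after their values were seen, and are given 5′ to 3′ up to 30 bases after the start.
Sdhb promoter: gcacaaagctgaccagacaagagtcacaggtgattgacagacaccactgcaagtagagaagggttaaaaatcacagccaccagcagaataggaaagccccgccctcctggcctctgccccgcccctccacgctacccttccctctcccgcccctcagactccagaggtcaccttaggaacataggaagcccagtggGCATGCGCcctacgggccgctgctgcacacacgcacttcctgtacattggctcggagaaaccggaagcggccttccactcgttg
Uqcr11 promoter: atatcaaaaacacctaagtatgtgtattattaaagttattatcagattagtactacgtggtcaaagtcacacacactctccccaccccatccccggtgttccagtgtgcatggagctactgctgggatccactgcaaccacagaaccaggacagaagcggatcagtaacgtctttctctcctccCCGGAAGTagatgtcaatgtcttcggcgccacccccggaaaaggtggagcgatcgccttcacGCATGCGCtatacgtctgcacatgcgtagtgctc
Ndufaf4 promoter: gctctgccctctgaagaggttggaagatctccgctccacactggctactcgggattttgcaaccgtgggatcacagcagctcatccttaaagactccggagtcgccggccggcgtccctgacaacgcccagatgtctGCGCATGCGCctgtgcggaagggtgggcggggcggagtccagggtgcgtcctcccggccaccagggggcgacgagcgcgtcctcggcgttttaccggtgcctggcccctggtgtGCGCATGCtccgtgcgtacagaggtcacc

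Sdhb rose in both genotypes, Uqcr11 was called higher in KO, and Ndufaf4, a complex I assembly factor, fell in KO by 0.44 (log2, SE 0.11, edgeR adjusted p = 0.000954). Members with this core thus went both ways. Of the members with a promoter in the table, it lay in 2 of 11 that rose, 2 of 20 that fell and 8 of 42 that were not called in WT, and in 4 of 13, 3 of 23 and 5 of 37 in KO. A match describes the letters of the promoter and not binding.

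The genes around the chain also held rises and falls, and their shares can be read against the 30.1% higher and 31.1% lower of all tested genes in WT and the 30.0% and 31.2% in KO. Of 17 genes for cytochrome c, coenzyme Q and other points of electron entry, 4 rose and 5 fell in WT and 4 rose and 7 fell in KO. Pdss2, which makes the tail of coenzyme Q, rose by 0.89 and 0.88 (log2), and Sqrdl, which oxidizes sulfide, fell by 0.97 and 1.22. Cyc1, cytochrome c1 of complex III, was lower in KO than WT at 0 h by 0.36 (log2, edgeR adjusted p = 0.0181). Of 26 tested assembly factors whose symbols the rule does not cover, 7 rose and 8 fell in WT and 6 rose and 6 fell in KO, with the copper chaperone Cox17 higher by 0.58 and 0.71.

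The genes of the tricarboxylic acid cycle, which feeds the chain, had 4 rises and 7 falls of 17 in WT and 3 rises and 9 falls in KO. Dlat and Idh3b rose, by 0.73 and 0.69 in WT, and Fh1 fell by 0.76 in WT and 0.88 in KO (log2). Dld was higher in KO than WT at 0 h by 0.28 (log2, edgeR adjusted p = 0.0409). Mitochondrial ribosomal proteins, which are needed to translate the mitochondrially encoded subunits, had 11 rises and 33 falls of 75 in WT, or 14.7% and 44.0%, and 10 rises and 25 falls in KO, or 13.3% and 33.3%. Mrpl13 fell by 1.08 and 1.12, and Mrpl38 rose by 0.67 and 0.92 (log2).

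Of 16 transcription regulators of respiratory genes, 5 rose and 7 fell in WT and 3 rose and 7 fell in KO. Ppargc1a, a coactivator of mitochondrial biogenesis, was at 7.77 and 7.13 CPM in WT 0 h, 22.4 and 24.1 in WT 2 h, 8.61 and 11.2 in KO 0 h, and 22.4 and 22.1 in KO 2 h. It rose by 1.64 in WT (log2, SE 0.14, edgeR adjusted p = 1.51e-09) and by 1.18 in KO (SE 0.14, edgeR adjusted p = 2.74e-07), with the 2 h libraries above the 0 h libraries. Nrf1, which encodes nuclear respiratory factor 1, was at 56.9 and 56.8 CPM in WT 0 h and 31.9 and 31.7 in WT 2 h, and at 56.6 and 57.3 CPM in KO 0 h and 33.3 and 32.3 in KO 2 h. It fell by 0.84 in WT (log2, SE 0.09, edgeR adjusted p = 5.58e-08) and by 0.80 in KO (SE 0.09, edgeR adjusted p = 1.37e-07), so these regulators went in opposite directions.

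Levels per length, in CPM per kilobase of the reference transcript, put the ATP synthase and complex IV at the top. In WT 0 h Atp5b stood at 1016, Atp5g3 at 625, Cox4i1 at 601 and Atp5a1 at 419 CPM per kilobase. The tested members without reads that could be shared, judged by 50-base windows of their transcript found in no other gene's transcript, numbered 47 and had a median of 72.2. For the 10 tested members with more than 25% of windows shared, the median was 27.3, with Atp5l at 0.405 and 68.5% of windows shared and Atp5g2 at 1.64 and 87.4%. The counts leave out multimapped reads, so the levels of Atp5l, Atp5g2, Atp5h, Atp5o, Cox5b, Cox7c, Ndufa12, Ndufb4, Ndufs3, Ndufs5 and Uqcrb are uncertain. The share was taken over the longest reference transcript of a gene, which can lower it. Ndufab1 shared 12.3% of windows over 3479 bases, and Atp5g1 10.6% over 4715 bases. They stood at 1.24 and 0.67 CPM per kilobase in WT 0 h, and their levels are uncertain too.

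Of the 94 genes, 8 had too few reads to be tested. Cox8b and Cox8c had no read in any library, where 3 reads would allow up to 0.210 CPM. Ndufs5 had 2 reads in all, and Cox4i2, Cox6b2, Cox7a1, Cox7b2 and Ndufa4l2 had at most 11 in a library. All but Ndufs5 and Ndufa4l2 are isoforms known from lung, muscle or testis, while Ndufa4l2 is known from hypoxic cells. In the reference the spans of 15 of the 94 overlap another protein-coding gene, among them Ndufa2 with Tmco6, Ndufb11 with Rbm10, Ndufv2 with Ankrd12, Atp5a1 with Haus1 and Atp5d with Cbarp. Whole gene spans were compared and not exons, and ambiguous reads were left out of the counts. Without the strand setting the effect of such overlaps on the counts is not known.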

How the data were processed

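RNA of the 8 libraries was sequenced in pairs, per the labels' protocols. The authors deposited raw counts, in 1 table for each library that lists 23304 gene symbols and 4 summary lines. They worked on mm9 with STAR 2.5.2b, HTSeq and bcl2fastq 2.15, per the submitters' processing notes. The annotation and the use of strand were not given in the sources used here. The summary lines (multimapped, unmapped, outside genes, ambiguous) took 36.9 to 43.2% of reads and were left out.

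The counts went into edgeR 4.0.16 (with limma 3.58.1, R 4.3.3). The filterByExpr filter (at least 10 reads per library by its group rule, 15 in total) left 12807 genes. A single quasi-likelihood model with robust dispersions, TMM factors and 1 coefficient per group was fitted to all 8 libraries, with 4 residual degrees of freedom and a biological coefficient of variation of 6.74%. Benjamini-Hochberg adjustment ran over all tested genes. Alternatives were DESeq2 1.42.0, RLE factors, library size alone, no filter or 1 CPM in 2 libraries, a fit of the compared groups alone, the replicate number as a block, a threshold test (fold 1.5) and each library left out in turn. The comparison relative to the chromosome median was added after seeing the data. The fit was tested on simulated data. The members and lists were chosen with earlier results of these data known. Within each complex and comparison, up to 3 called members with the largest change in each direction and a group mean of 1 CPM or more were named, with all of complex II and the isoform sets. A gene named outside this rule was chosen after its values were seen. Members were assigned to complexes by textbook role. Chromosomes, transcripts and promoters came from GRCm38 annotations by symbol, which matched 94 of 94, and no coordinate of the mm9 counts was used. A gene that the naming rule covers is not reported here.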

Additional observations from a re-analysis of the deposited data

How the results depend on the processing

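Scaling by library size alone gave 29 rises and 14 falls in WT (2 h against 0 h) and 29 and 16 in KO, moved the members' median log2 fold change to 0.114 and 0.117, and moved their summed level to 9647 CPM in WT 0 h and 11179 CPM in WT 2 h, from 10066 and 10593. A test against a fold of 1.5 called 2 rises and 2 falls in WT, 2 and 2 in KO, and 0 members lower in KO than WT at 0 h. The WT median of -0.0254 became -0.0171 with RLE factors, -0.0173 in DESeq2, -0.0155 with at least 1 CPM in 2 libraries, -0.0157 with the compared groups alone, -0.0369 with no filter and -0.0609 relative to the chromosome median. Members higher in KO at 0 h numbered 2 with no filter and 1 with the compared groups alone. Relative to the chromosome median, members whose call changed sign were Atp5a1 (-0.34 in WT, -0.30 in KO), Ndufb9 (0.22 in WT, 0.14 in KO), Cox6c (0.0432 in WT), Cox7b (0.0347 in KO) and Ndufa1 (0.21 in KO). The cause of these moves was not tested.

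No sign of pairing by replicate number was seen: the correlations of the differences between replicates ran from -0.05 to -0.01 over the 6 pairs of groups. Each difference rests on the 2 libraries of a group, so this cannot show whether equal numbers share a culture or day. With the replicate number as a block, 36 of 38 WT calls and 41 of 42 KO calls were kept, and 0 members were lower in KO at 0 h, where Atp5d had an edgeR adjusted p of 0.0576 and Ndufa7 of 0.0653.

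Leaving out 1 library gave 9 to 14 rises and 14 to 16 falls in WT with medians of -0.0351 to 0.00512, and 14 to 27 rises and 15 to 28 falls in KO with medians of -0.11 to 0.06. Between KO and WT it gave 0 higher and 0 to 5 lower members at 0 h (medians -0.118 to 0.0361), 0 and 0 at 2 h (medians -0.126 to 0.0611), and 0 to 1 in each direction for the interaction (medians -0.09 to 0.11). Where a group was left with 1 library, it was taken to vary like the other groups. Depth limits Cox6a2, Atp5g1, Atp5g2, Atp5l and Ndufaf3, which had few reads.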

Other observations

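Members were also set beside their neighbours along the chromosome. Across the 86 tested members, the log2 fold change from 0 h to 2 h and the median over up to 50 neighbouring tested genes had a Pearson r of 0.37 in WT and 0.36 in KO, and a Spearman rho of 0.39 and 0.51. These correlations are across genes of the same libraries, which are not independent replicates, and Cox6a2 and Atp5l lie far from the other members. For KO against WT the Pearson r was 0.18 at 0 h and 0.10 at 2 h, and the Spearman rho was 0.35 and 0.16. Chromosome 10 held 5 tested members. In KO from 0 h to 2 h their neighbour medians were 0.40 for Atp5d, 0.40 for Uqcr11, 0.42 for Ndufs7, 0.29 for Atp5b and -0.04 for Ndufa12. The members themselves changed by 0.50, 0.53, 0.65, 0.30 and 0.34 (log2).

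Endothelial markers stood at 2.41 to 3.22 CPM in sum in WT 0 h and 12.5 to 13.9 CPM in WT 2 h, and at 3.15 to 5.08 CPM and 12.2 to 14.7 CPM in KO. Leukocyte and macrophage markers summed to 15.7 to 16.4 CPM in WT 0 h, 17.95 to 19.2 CPM in WT 2 h, 21.6 to 30.2 CPM in KO 0 h and 12.2 to 23.7 CPM in KO 2 h. Their part in the changes of the members was not tested.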
